A study of Mus musculus with 12 samples.

Results

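The 10 genes described here are transcripts that mark Kupffer cells, the resident macrophages of the liver, namely Clec4f, Timd4, Cd5l, Vsig4, Adgre1, Marco, Csf1r, C1qa, C1qb and C1qc. They were picked by symbol, with earlier results of these data known, and all 10 were found among the 16821 genes listed for each mouse. RNA-seq had been performed on liver from adult male C57BL/6J mice, bought at 8 weeks of age. The Exe group (6 mice) underwent moderate-intensity treadmill running for 6 weeks, and the Con group (6 mice) stayed sedentary in the same room. Livers were flushed with saline through the heart before excision and were collected within a day of the last run. No allele or agent other than the running is named for either group, and each library was 1 mouse. The comparison asks how chronic exercise bears on the liver, here on its resident macrophages.

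Kupffer cells sit inside the liver sinusoids, where they remove bacteria, worn red cells and dying cells from portal blood. They are seeded before birth and sustain themselves through signals from neighbouring endothelial, stellate and hepatocyte cells, with CSF1 receptor signaling needed for their survival. Their identity genes include lectins, scavenger and complement receptors, the phosphatidylserine receptor TIM-4 and the subunits of C1q, the molecule that starts the classical complement pathway.

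Values were FPKM (fragments counted per gene, scaled to transcript length and to the depth of the library), so levels can be set side by side between genes as well as between mice. The FPKM of all genes summed to 735200 to 820107 per mouse, and the depth of the libraries relative to each other, read from 20 genes, ranged from 0.984 to 1.015. These genes were kept only if their values lay near whole multiples of the smallest value. That choice leaves out genes showing larger depth differences, so the range cannot show that the depths were nearly equal. The number of reads behind a value is unknown. Every member had an FPKM above 3 in every mouse, so all 10 passed the filter on low values (FPKM of at least 1 in at least 6 mice), as did 10241 genes in all. In whole tissue, fewer Kupffer cells and less RNA per cell cannot be told apart.

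Promoter sequences are shown for 4 members, because the results below turn on how closely these genes varied together: C1qb and C1qc, which are neighbours and nearly inseparable across mice, Clec4f, the most Kupffer-restricted member, and Marco, which stood apart. Each is RefSeq sequence of the build GRCm38.p6, 5′ to 3′ in the direction of transcription, from 250 bases before the start to 50 bases after it, 300 bases in all. Capitals mark GAGGAA, the core letters bound by the macrophage factor PU.1, or GGAAGT, letters of ETS-family sites, on either strand (TTCCTC and ACTTCC on the other strand).
C1qb, chr4:136886151-136886450, minus strand: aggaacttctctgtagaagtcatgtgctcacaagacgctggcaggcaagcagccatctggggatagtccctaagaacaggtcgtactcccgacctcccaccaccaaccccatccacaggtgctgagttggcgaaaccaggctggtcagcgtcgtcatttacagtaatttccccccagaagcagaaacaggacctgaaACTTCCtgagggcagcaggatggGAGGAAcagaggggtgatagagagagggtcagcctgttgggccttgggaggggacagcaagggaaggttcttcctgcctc
C1qc, chr4:136892865-136893164, minus strand: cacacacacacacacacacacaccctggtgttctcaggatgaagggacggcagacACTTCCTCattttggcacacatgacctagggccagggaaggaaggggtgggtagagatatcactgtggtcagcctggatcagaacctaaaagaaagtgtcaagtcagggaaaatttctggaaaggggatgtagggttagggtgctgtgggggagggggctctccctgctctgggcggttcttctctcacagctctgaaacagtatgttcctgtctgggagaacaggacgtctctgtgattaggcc
Clec4f, chr6:83656067-83656366, minus strand: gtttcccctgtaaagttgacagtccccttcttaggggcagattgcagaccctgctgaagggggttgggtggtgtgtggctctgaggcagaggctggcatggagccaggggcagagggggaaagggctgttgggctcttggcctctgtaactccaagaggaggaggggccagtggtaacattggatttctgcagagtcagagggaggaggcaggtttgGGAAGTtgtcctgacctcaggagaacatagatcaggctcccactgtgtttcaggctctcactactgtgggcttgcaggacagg
Marco, chr1:120504975-120505274, minus strand: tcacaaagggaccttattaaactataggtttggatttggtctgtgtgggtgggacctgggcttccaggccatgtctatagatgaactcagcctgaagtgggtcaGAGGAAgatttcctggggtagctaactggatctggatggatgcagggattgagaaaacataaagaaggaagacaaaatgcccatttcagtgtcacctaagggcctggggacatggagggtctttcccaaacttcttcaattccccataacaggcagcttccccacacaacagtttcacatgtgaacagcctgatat
The starts of C1qb and C1qc lay 6714 bases apart on chromosome 4. RefSeq promoters were matched for 7 of the 10 members, the other 3 being Adgre1, Csf1r and C1qa. GAGGAA was present in 5 of the 7 windows (Cd5l, Vsig4, Marco, C1qb and C1qc) and in 28.3% of 32851 mouse promoters of the same length, while GGAAGT was present in 5 of the 7 (Clec4f, Timd4, Vsig4, C1qb and C1qc) and in 23.8% of all. The pair share the letters GGAA and overlap in C1qc, where both run into each other as ACTTCCTC. At least 1 of them was found in all 7 windows and in 43.4% of all promoters. TGCTGA, also searched on both strands, was in 5 of the 7 (Clec4f, Timd4, Cd5l, Vsig4 and C1qb) and in 19.5% of all. The letters CACGTG (7.15% of all promoters), TATAAA (13.6%) and TGACTCA (5.2%), searched on both strands, were in none of the 7. These matches describe letters in a short window and not binding.

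The lectin and adhesion receptors are described first. Clec4f encodes a C-type lectin that in mouse is restricted to Kupffer cells. Its FPKM ran from 38.3 through a median of 45.95 to 70.7 in Con, and from 26.0 through 41.9 to 56.5 in Exe. Con 2 and Con 1 were highest and Exe 2 and Exe 1 lay below every Con mouse, but Exe 3 and Exe 5 exceeded 4 of the 6 Con mice, so the groups overlapped. The log2 fold change, Exe against Con on log2(FPKM + 1), was -0.23 (SE 0.19, 95% interval -0.63 to 0.18), with an adjusted p of 0.929 in limma and p = 0.325 in the two-sided exact permutation test. Adgre1 encodes F4/80, the adhesion receptor by which mouse macrophages are commonly sorted. It ran from 4.13 through 5.49 to 7.36 FPKM in Con and from 3.18 through 4.71 to 7.30 in Exe, and only Exe 2 was outside the Con range. Its log2 fold change was -0.13 (SE 0.15, interval -0.46 to 0.20, limma adjusted p = 0.944).

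Timd4 encodes TIM-4, the receptor that marks long-lived, embryonically derived Kupffer cells and binds phosphatidylserine on dying cells. Its FPKM ran from 4.30 through 5.305 to 6.87 in Con and from 3.56 through 4.445 to 7.23 in Exe. Exe 5 was the highest mouse of all and Exe 1 and Exe 2 the lowest, so the Exe range enclosed the Con range. The log2 fold change was -0.18 (SE 0.14, interval -0.49 to 0.13, limma adjusted p = 0.922).

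Among the secreted and scavenging members, Cd5l encodes AIM, a macrophage protein carried in blood on IgM, and was the most abundant of the 10. It ran from 58.6 through 80.1 to 116 FPKM in Con and from 39.9 through 58.1 to 109 in Exe. Exe 1, Exe 2 and Exe 6 lay below all Con mice, whereas Exe 5 was exceeded only by Con 2. The log2 fold change was -0.32 (SE 0.23, interval -0.83 to 0.18, limma adjusted p = 0.912). Marco encodes a class A scavenger receptor for bacteria and particles. Its FPKM ran from 4.47 through 7.47 to 16.7 in Con and from 3.71 through 4.445 to 21.9 in Exe. A single mouse in each group, Con 4 and Exe 5, was far above its group, and 3 of the 6 Exe mice lay below every Con mouse. The log2 fold change of Marco was -0.34 (SE 0.38, interval -1.15 to 0.48, limma adjusted p = 0.937).

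Vsig4 encodes CRIg, the receptor by which Kupffer cells capture particles coated with C3 fragments. It ran from 18.2 through 22.7 to 31.7 FPKM in Con and from 13.6 through 18.2 to 26.8 in Exe. Exe 1, Exe 2 and Exe 4 lay below every Con mouse, while Exe 3 and Exe 5 were above every Con mouse except Con 2. The log2 fold change was -0.25 (SE 0.17, interval -0.61 to 0.11, limma adjusted p = 0.899). Csf1r encodes the receptor for CSF1 and IL-34, on which macrophages depend. It ran from 15.2 through 19.3 to 27.0 FPKM in Con and from 10.5 through 14.8 to 22.7 in Exe. This was the member with the most Exe mice, 4 of 6, below the lowest Con mouse, but Exe 3 and Exe 5 lay inside the Con range. Its log2 fold change was -0.32 (SE 0.19, interval -0.73 to 0.09), with the smallest adjusted p of the members, 0.863 in limma, and p = 0.167 in the exact permutation test.

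C1qa, C1qb and C1qc encode the A, B and C chains that assemble into C1q, and liver macrophages are a main source of them. C1qa ran from 50.6 through 59.6 to 94.2 FPKM in Con and from 39.0 through 55.6 to 80.2 in Exe. C1qb ran from 48.7 through 52.8 to 92.7 in Con and from 36.8 through 51.2 to 85.8 in Exe. C1qc ran from 54.4 through 62.4 to 101 in Con and from 42.7 through 57.1 to 84.0 in Exe. For each chain Con 2 was the highest mouse, and Exe 1 and Exe 2 lay below all Con mice while the other 4 Exe mice lay within the Con range. The log2 fold changes were -0.17 (SE 0.18, interval -0.55 to 0.21) for C1qa, -0.11 (SE 0.20, interval -0.55 to 0.33) for C1qb and -0.20 (SE 0.18, interval -0.59 to 0.19) for C1qc, with limma adjusted p-values of 0.932, 0.961 and 0.931.

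**Figure D1:**
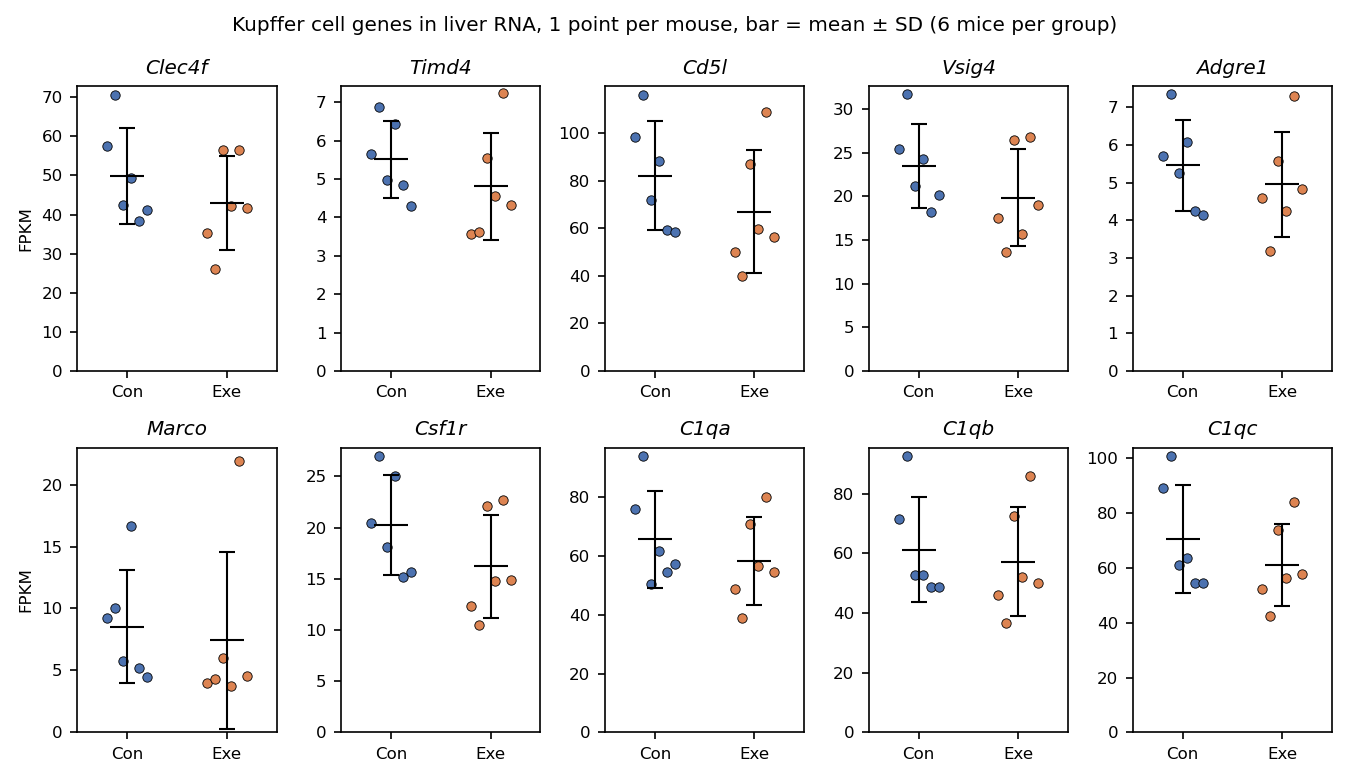
FPKM (vertical axis, from 0) of each of the 10 Kupffer cell genes in the 6 Con and 6 Exe mice, with 1 point per mouse and bars for the group mean and SD. The groups overlap in every panel, and in the Marco panel 1 Con mouse (16.7) and 1 Exe mouse (21.9) stand far above the others.

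Compared with the Con group, none of the 10 members passed an adjusted p of 0.05 in limma, where 0 of all 10241 genes tested (0.0%) did. None passed an unadjusted p of 0.05 either, against 636 of all genes tested (6.21%), of which 199 (1.94%) were lower and 437 (4.27%) higher in Exe. The groups did not overlap for 26 genes (0.254%), none of them a member. The fold change estimates of all 10 members were below 0, as were those of 42.5% of all genes tested, and the estimate for C1qb was above 0 (0.02) without Con 2 and 0.00 without Exe 2. The median log2 fold change was -0.21 over the members and 0.02 over all genes. Because the members varied together from mouse to mouse, as shown next, these 10 estimates are not 10 independent observations. The 95% intervals, taken as ratios of FPKM + 1, reach from 0.45 times Con (Marco) to 1.40 times (Marco), and for the other 9 members from 0.563 times (Cd5l) to 1.26 times (C1qb). Differences of this size were not resolved with 6 mice per group, and such ratios understate those of FPKM itself for low members. Exe 5 bore on these counts. Without this mouse 4 members passed an unadjusted p of 0.05 in limma, where 905 of 10172 genes (8.9%) did. They were Timd4 (log2 fold change -0.29, limma adjusted p = 0.541), Cd5l (-0.48, 0.55), Marco (-0.68, 0.533) and Csf1r (-0.42, 0.545). Without Exe 3 only Csf1r passed (-0.42), against 6.38% of all genes. The lowest adjusted p of any member in any setting was 0.533 (Marco, limma).

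**Figure D2:**
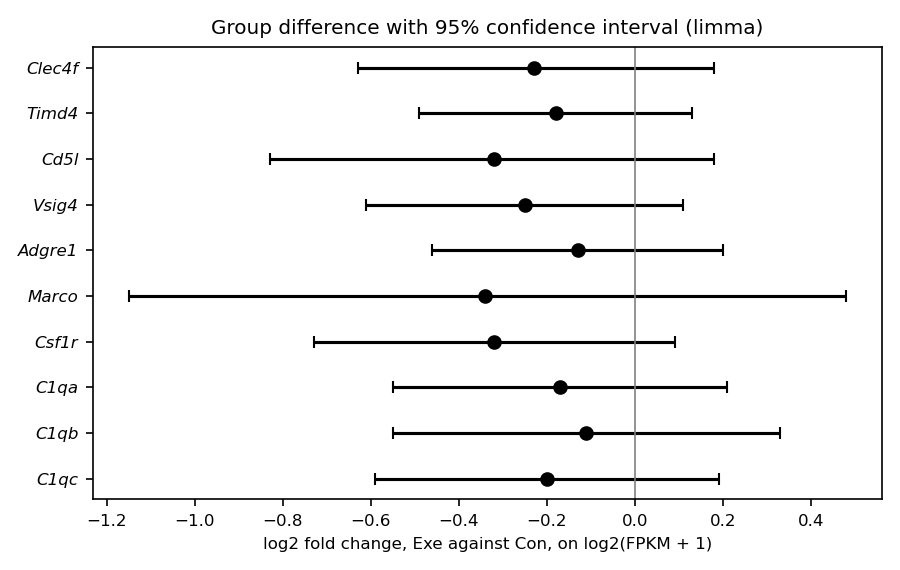
Log2 fold change (horizontal axis, Exe against Con, on log2(FPKM + 1)) of each Kupffer cell gene, with points for the limma estimate and bars for its 95% confidence interval. Every estimate is below 0 and every interval includes 0, with the widest for Marco (-1.15 to 0.48).

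The members differed more between individual mice than between groups. The summed FPKM of the 10 genes was 459 in Con 1, 558 in Con 2, 334 in Con 3, 394 in Con 4, 303 in Con 5 and 309 in Con 6. It was 274 in Exe 1, 220 in Exe 2, 427 in Exe 3, 310 in Exe 4, 501 in Exe 5 and 309 in Exe 6. The mean was 392.9 in Con and 340 in Exe, an Exe minus Con difference of -52.8, smaller in size than the SD of either group (104 in Exe). It was -19.9 without Con 2, -28.7 without Exe 2 and -85.1 without Exe 5. Con 2 was the highest mouse for 8 of the 10 members and Exe 5 for the other 2 (Timd4 and Marco), and both were among the 3 highest mice for all 10. Exe 2 was the lowest mouse for 8 members and among the 3 lowest for all 10, and Exe 1 was among the 3 lowest for 9. The highest mouse exceeded the lowest by 2.03 times (Timd4) to 2.91 times (Cd5l), and by 5.91 times for Marco. The SD of log2(FPKM + 1) within groups placed the members between the 89.5th (Timd4) and the 99.3rd percentile (Marco) of all genes tested.

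**Figure D3:**
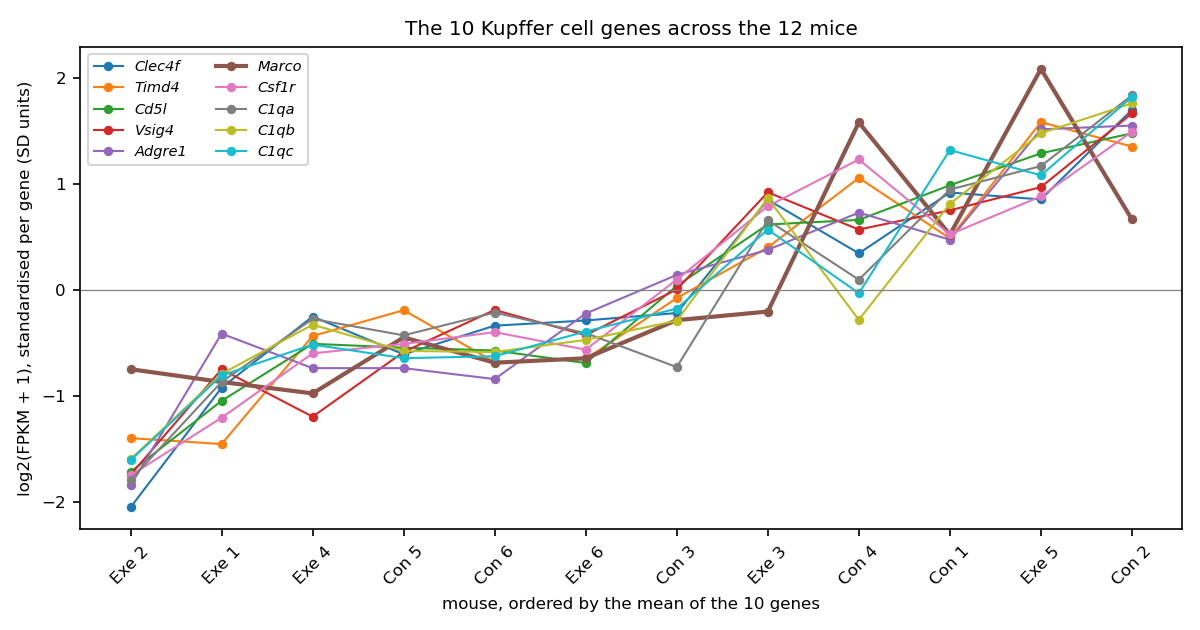
Level of each Kupffer cell gene (1 line per gene) in the 12 mice, as log2(FPKM + 1) standardised per gene in SD units, with mice ordered along the horizontal axis by the mean of the 10 genes. The lines climb together from Exe 2 (mean -1.621) to Con 2 (mean 1.53). The lowest mice are Exe 2, Exe 1 and Exe 4, and above them Con and Exe mice are interspersed. Marco lies above every other gene at Con 4 (1.578), Exe 5 (2.082) and Exe 2 (-0.746). It lies below every other gene at Con 2 (0.665) and Exe 3 (-0.203).

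Correlations across the 12 mice were computed on log2(FPKM + 1) for the 45 pairs of members, with 100000 permutations per pair and Benjamini-Hochberg adjustment over the pairs. All 45 pairs had an adjusted permutation p of at most 0.05, for Pearson's r (largest adjusted p 0.025) and for Spearman's rho (largest 0.0078). Pearson's r ran from 0.643 to 0.972 with a median of 0.911, and rho from 0.741 to 0.993 with a median of 0.893. The median r after centring each group on its own mean was 0.917, so the relation did not rest on the difference between Con and Exe. Among the 36 pairs without Marco, r was 0.852 to 0.972 over all mice, 0.728 to 0.986 within Con, 0.855 to 0.999 within Exe, and 0.717 to 0.963 after leaving out the 2 mice farthest from the median of the first gene of the pair. The highest r joined Clec4f and C1qa (r = 0.972, adjusted permutation p = 4.5e-05, rho = 0.902, adjusted p = 0.000375), and the highest rho joined Clec4f and C1qc (rho = 0.993, r = 0.963, adjusted permutation p = 0.00015 and 3e-05, from the smallest p that 100000 permutations can give). The values of a pair come from the same library and share its depth, and the median r was 0.904 after scaling every mouse to the same sum. Over 10231 other tested genes, the median r with the mean standardised level of the members was -0.04, and 3.67% exceeded 0.7.

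**Figure D4:**
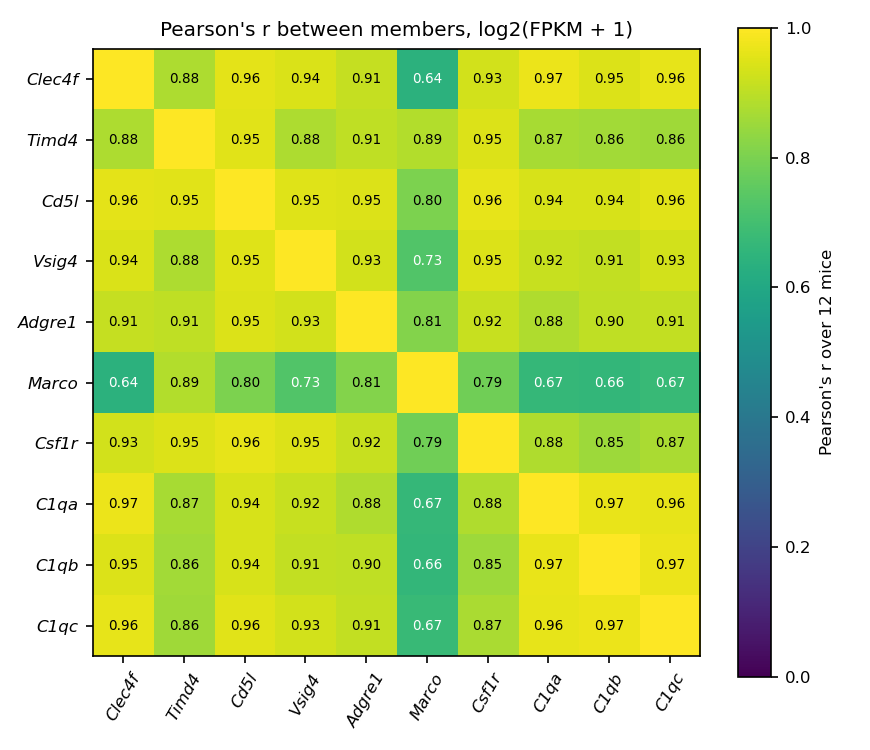
Pearson's r over the 12 mice between each pair of Kupffer cell genes, computed on log2(FPKM + 1), with colour from 0 to 1 and the value printed in each square. The row and column of Marco are lowest (0.643 to 0.885), and every pair among the other 9 genes is at or above 0.852.

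The 3 C1q chains kept nearly fixed proportions. The ratio of C1qa to C1qb ran from 0.934 to 1.18 over the 12 mice (coefficient of variation 7.28%), that of C1qa to C1qc from 0.827 to 1.05 (6.57%) and that of C1qb to C1qc from 0.802 to 1.02 (6.84%), while each chain by itself varied by 24.9% to 29.1%. C1qb and C1qc, the neighbours on chromosome 4 printed above, had r = 0.971 (rho 0.965). Vsig4 and Clec4f, on different chromosomes, were similarly tied, with a Vsig4 to Clec4f ratio from 0.372 to 0.524 (8.24%). The ratios to Clec4f of Timd4, Cd5l, Csf1r and Adgre1 varied by 10.9% to 13.1%, against 57.5% for Marco.

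Marco was the member least tied to the rest. Its r with the other members ran from 0.643 (Clec4f) to 0.885 (Timd4), and its r with the mean of the other 9 was 0.766, where each other member reached 0.94 to 0.992. By rank the gap was smaller, with rho of 0.741 to 0.923 (median 0.846) for pairs with Marco and 0.778 to 0.993 (median 0.899) for the other pairs. The Marco to Clec4f ratio was 0.337 in Con 4 and 0.388 in Exe 5 and lay between 0.088 and 0.165 in the other 10 mice. Without Con 4 and Exe 5, the lowest r among all 45 pairs was 0.809 and the median was 0.940. Con 4 and Exe 5 were the 2 highest mice for 254 tested genes (2.48%), but only Marco and Gbp6, an interferon-inducible GTPase, had both at 1.5 times the third highest mouse or more. Genes with the profile most like that of Marco, picked after values were seen, were led by Cd52 (r = 0.931), a surface glycoprotein of leukocytes, followed by Evl (0.928), Rgs2 (0.925) and the antigen-presentation gene H2-DMb1 (0.924).

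**Figure D5:**
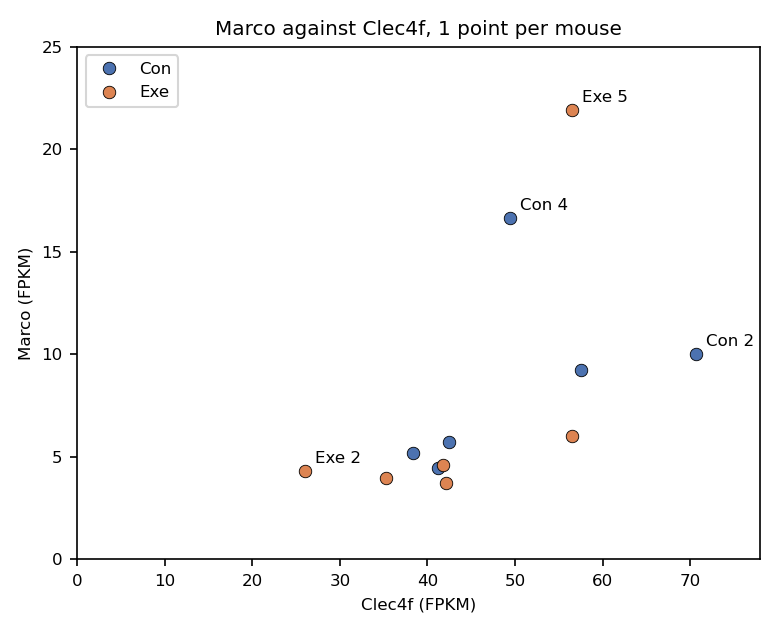
FPKM of Marco (vertical axis) against FPKM of Clec4f (horizontal axis), with 1 point per mouse and colour for the group. The other 10 mice follow a shallow common slope, and Con 4 (Marco 16.7) and Exe 5 (21.9) lie well above it.

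Levels per transcript length formed an order, from Cd5l (74.6 ± 24.7 FPKM, SD, n = 12) through C1qc (65.9 ± 17.4), C1qa (62.1 ± 15.5), C1qb (59.2 ± 17.2), Clec4f (46.5 ± 12.1), Vsig4 (21.6 ± 5.3), Csf1r (18.2 ± 5.19), Marco (7.98 ± 5.75) and Adgre1 (5.21 ± 1.27) to Timd4 (5.16 ± 1.21). Neighbours in this order were compared within mice by an exact two-sided sign-flip permutation test of the log ratio, adjusted over the 9 neighbouring pairs. The order was taken from the same 12 mice, so these tests are no independent support for it. They cover the spread between mice and not errors of FPKM between genes. Adgre1 and Timd4 were not resolved from each other, with a ratio of 1.01, Adgre1 higher in 7 of 12 mice and an adjusted p of 0.812. The other 8 steps had adjusted p-values of 0.00146 to 0.0302. Steps among Cd5l and the C1q chains were small, with ratios of 1.06 to 1.11 held by 9 of 12 mice each, and the steps from C1qb to Clec4f (1.27), Clec4f to Vsig4 (2.14) and Csf1r to Marco (2.63) were held by 12 of 12.

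The 10 tested genes whose profile was most like the mean of the members were, by Pearson's r over the 12 mice, Sdc3 (0.992), Ctss (0.979), Cfp (0.977), Tyrobp (0.975), Pld4 (0.975), Itgal (0.954), Treml4 (0.950), Folr2 (0.950), Fgd2 (0.950) and Laptm5 (0.949). Ctss encodes the lysosomal protease cathepsin S, Cfp encodes properdin, the activator of the alternative complement pathway, and Tyrobp encodes the adaptor DAP12. Sdc3, a heparan sulfate proteoglycan, had r = 0.992 within Con and 0.997 within Exe, at 19.4 ± 5.11 FPKM in Con and 16.7 ± 5.13 in Exe (SD, n = 6 each).

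Related genes were read from lists, each beside the same r with the members' mean profile and the limma counts; no gene of any list passed an adjusted p of 0.05. Of 14 other genes enriched in Kupffer cells, 7 had r above 0.7 (median 0.705), among them Slc11a1 (0.936), which pumps metal ions out of phagosomes, the scavenger receptor Cd163 (0.830) and Cd68 (0.883). The rest followed the members less, with r of 0.055 for Slc40a1, 0.127 for Mrc1, 0.133 for Id3, 0.276 for C6, 0.414 for Spic and 0.581 for Nr1h3, besides Hpgd. In this list 2 genes had estimates above 0 and 12 below (median log2 fold change -0.09), and 1 passed an unadjusted p, Hpgd, which inactivates prostaglandins (log2 fold change 0.26, limma adjusted p = 0.793, r = -0.48). Of 17 tested macrophage and myeloid genes, 15 had r above 0.7 (median 0.907), 15 had estimates below 0 (median -0.13), and Fcgr3, a receptor for IgG, passed an unadjusted p (log2 fold change -0.31, limma adjusted p = 0.793). Lyz2, the lysozyme gene and the most abundant of them, had 75.6 ± 18.2 FPKM in Con and 65.6 ± 15.5 in Exe (SD, n = 6 each).

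Ligands and transcription factors of the macrophage lineage had lower correlations with the members. Of 12 tested CSF1 receptor ligands and macrophage transcription factors, only Spi1, which encodes PU.1, had r above 0.7 (0.942). Of these 12 genes, 6 had estimates above 0 and 6 below (median 0.02). Of the ligands, Csf1 had 3.44 ± 0.498 FPKM in Con and 3.73 ± 0.99 in Exe, and Il34 lay below the filter. Of 6 tested niche signals, 4 had estimates below 0 (median -0.05), none passed an unadjusted p, and Gdf2, the gene for BMP9 and the most abundant of them, had r = 0.709.

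C1ra and C1s1, the proteases that bind C1q and are made by hepatocytes, varied little between mice. They had r of 0.065 and 0.185 with the members, at 175 ± 9.44 FPKM in Con and 174 ± 7.52 in Exe for C1ra and 215 ± 12.9 and 201 ± 6.87 for C1s1 (SD, n = 6 each). C4b varied more, at 391 ± 68.2 FPKM in Con and 359 ± 43.8 in Exe. Over the 12 tested genes of this list that are no members, r ran from -0.754 to 0.686 (median 0.276). Over the 15 genes of the pathway and its inhibitors, C1q chains included, 11 had estimates below 0 (median -0.10), none passed an unadjusted p, and C3 was the most abundant (2180 ± 275 FPKM in Con, 2200 ± 415 in Exe). Of 4 tested complement receptors, Vsig4 included, 3 had estimates below 0 (median -0.04) and Calr, a chaperone that also binds C1q, passed an unadjusted p (log2 fold change 0.27, limma adjusted p = 0.793).

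The functions of the members were also followed through other genes that share them. Of 13 tested scavenger receptors, Marco included, 9 had estimates below 0 (median -0.02), none passed an unadjusted p, and Scarb1, the HDL receptor, was the most abundant, with r = 0.205. Of 12 tested genes for uptake of apoptotic cells, Timd4 included, 11 had estimates below 0 (median -0.05) and none passed, and Axl, a receptor tyrosine kinase, had r = 0.935 where Mertk had 0.159. Of 11 genes for red cell clearance and iron recycling, 8 had estimates below 0 (median -0.04), none passed, and Ftl1, ferritin light chain, had r = -0.09. Of 10 tested macrophage cytokines and chemokines, 8 had estimates below 0 (median -0.15). Ccl9, a chemokine, was the 1 that passed an unadjusted p, with 17.6 to 20.7 FPKM in Con and 20.4 to 25.8 in Exe (log2 fold change 0.33, limma adjusted p = 0.519, r = -0.33).

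Markers of the other cell types that liver tissue can hold were read in the same mice. Monocyte-defining genes were at low levels, with Ly6c2 at most 1.61, Ccr2 at most 0.70 and Cx3cr1 at most 0.35 FPKM in any mouse, although no marker of any list was at 0 in all mice. The summed FPKM of 12 monocyte markers was 37.8 to 62.5 in Con and 30.1 to 80.0 in Exe, most of it from Plac8 and Cd52, and was highest in Exe 5. Its 4 tested genes had no unadjusted pass and 3 estimates below 0 (median -0.20). Clec4f was also correlated with the mean log2(FPKM + 1) of the tested genes of each of 12 cell type and acute-phase lists. The genes were not standardised, so the most variable ones weigh most in that mean. No list reached an adjusted permutation p of 0.05 for Pearson's r. The highest r was that of the monocyte list (r = 0.753, rho = 0.734, adjusted permutation p = 0.0632 and 0.0508, r = 0.661 within Con and 0.814 within Exe, 0.683 without Con 2 and Exe 2). For Spearman's rho, the bile duct list passed, but through only 2 of its 7 markers, Sox9 and Spp1, as the other 5 lay below the filter (rho = 0.783, adjusted permutation p = 0.0448, r = 0.635 over all mice and 0.580 without Con 2 and Exe 2). Acute-phase genes of hepatocytes had r = 0.615 and rho = 0.615 with Clec4f (adjusted permutation p = 0.0632 and 0.0935), and their summed FPKM ran from 6943 to 39330 in Con and from 7484 to 39680 in Exe, highest in Exe 5. The part of these other cells and of the acute-phase genes in the values of the members was not tested.

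Hepatocyte and sinusoidal endothelial markers had correlations with Clec4f below 0, none past the test. For 9 tested hepatocyte markers the r with Clec4f was -0.62 (rho -0.54, adjusted permutation p = 0.0632 and 0.137). Of these, 8 had estimates above 0 (median 0.03), and Alb (log2 fold change 0.34, limma adjusted p = 0.793) and Cps1 (0.29, limma adjusted p = 0.777) passed an unadjusted p. For 12 sinusoidal endothelial markers r with Clec4f was -0.36 (rho -0.33, adjusted permutation p = 0.333 and 0.396), 8 had estimates above 0 (median 0.08) and none passed. Stellate cell and fibroblast markers had r = 0.511 with Clec4f (rho 0.671, adjusted permutation p = 0.158 and 0.0783) and 10 of 11 estimates below 0 (median -0.13), with none past an unadjusted p. Neutrophil markers had r = 0.638 with Clec4f (rho 0.608, adjusted permutation p = 0.0632 and 0.0935), 3 of 3 tested genes had estimates above 0 (median 0.25) and none passed. The neutrophil list held 13 markers, and the others lay below the filter. The summed FPKM of all 13 had a median of 19.05 in Con and 18.85 in Exe, and was highest in Exe 3 (57.66) and Exe 5 (54.62). For the remaining lists (dendritic, B and plasma, T and NK, red blood and pancreatic acinar cells) r with Clec4f ran from -0.62 (pancreatic, from Cela1 alone) to 0.025 (T and NK, from Nkg7 alone), with adjusted permutation p-values of 0.0632 to 0.966. The 7 acinar markers below the filter had r of 0.102 (Ctrb1) to 0.479 (Cpb1) with the members, opposite in sign to Cela1, with Amy2a5, Pnlip, Prss2 and Cpa1 listed at 0 in every Con mouse. Pnlip, Prss2 and Cpa1 were at 0 in 10 of the 12 mice, Cpb1 in 9 and Amy2a5 and Ctrb1 in 8, so their r rest on few mice. The summed FPKM of the acinar list was highest in Exe 5 (30.03). The bile duct markers Krt19, Krt7, Epcam and Cldn7, also below it, had r of -0.18, -0.04, -0.12 and -0.21 with the members.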

How the data were processed

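Total RNA of 12 livers (6 Con, 6 Exe) was extracted with TRIzol and sequenced as paired reads on a DNBseq platform. The authors removed adapters, low-quality and short reads and aligned with HISAT to GRCm39; the submitters' notes also name Bowtie2 and mm10, with no role stated, and the counting tool is not given in the sources used here. The deposited values are FPKM per gene and mouse, normalised by the authors to transcript length and library depth. Per the study's methods, outliers had been excluded by principal component analysis. Reads cannot be recovered from FPKM, so counting precision is unknown and no count model was applied.

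Groups and replicate numbers were taken from the sample labels. log2(FPKM + 1) of the 10241 genes with FPKM of at least 1 in at least 6 mice was compared between groups with limma 3.58.1 (R 4.3.3, moderated with a mean-variance trend, Benjamini-Hochberg over all genes tested). A fold change on this scale understates that of low genes. Each member also had an exact permutation test over the 924 splits of the mice (smallest p 0.00216). Correlations used 100000 permutations (smallest p 1e-05). The limma fit was tested on simulated data with known changes, and the permutation tests only on simulated data with no difference or relation. The p-values weigh a difference or relation against the variation of values between mice, in which counting error is included.

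The members and the lists were chosen with earlier results of these data known. Named were every member; from each list the genes past an unadjusted p of 0.05 or, if none, the most abundant one; and the 10 genes most like the members. Some results of the lists are not reported here. Other names, given for their background or their r, were chosen after values were seen. Alternatives were quantile normalisation, scaling to an equal sum per mouse, a pseudocount of 0.1, no filter or a mean FPKM of at least 5, robust moderation, a replicate block, and leaving out mice.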

Additional observations from a re-analysis of the deposited data

Results flagged for a closer look

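In all, 64 sets of 6 mice were checked for a mouse far from its group. The measure was the gap to the nearest mouse over the whole range, against the limit for 6 samples. Of the 64 sets, 9 stood out. For independent sets chance gives about 1 in 20, but these sets share mice and values, so the 9 cannot be read as an excess. Exe 5 was the mouse in 7 of the 9. Its Marco level (21.9 FPKM, gap 0.873 of the range) and its ratios of Marco to Clec4f (0.388, gap 0.743) and Cd5l to Clec4f (1.93, gap 0.672) were above the other Exe mice. In the same mouse the summed FPKM of acute-phase genes (39680, gap 0.798), pancreatic acinar markers (30.03, gap 0.772), bile duct markers (77.04, gap 0.690) and B and plasma cell markers (8.61, gap 0.657) was the highest of the Exe group. In Con 4 the ratio of Marco to Clec4f was far from its group (0.337, gap 0.776), and in Con 1 the summed neutrophil markers were (36.87, gap 0.631). The relation between these values and the level of the Kupffer cell genes in Exe 5 was not tested.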

How the results depend on the processing

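Over 263 recomputed values, 257 kept their direction, their side of the threshold or their size. The log2 fold change of C1qb became 0.02 without Con 2 and 0.00 without Exe 2, and ranged down to -0.24 when other mice were left out (lowest without Exe 5). Other estimates also came nearer to 0 without 1 mouse, at the least Clec4f -0.09, Adgre1 -0.03, Cd5l -0.19 and Csf1r -0.22 (Exe 2), C1qa -0.06, C1qc -0.09, Timd4 -0.12 and Vsig4 -0.16 (Con 2), and Marco -0.13 (Con 4). With all listed genes in the fit, 1 gene, D630003M21Rik, which is no member and was named after its value was seen, passed an adjusted p of 0.05. Leaving out 1 mouse at a time gave 418 to 905 genes past an unadjusted p (lowest without Exe 2, highest without Exe 5) and 0 to 4 members, with 4 without Exe 5 and 1 without Exe 3. Scaling moved the median of all genes from 0.02 to 0.01 (quantile) or 0.05 (to an equal sum per mouse), and all 10 members stayed below 0. All 45 pairs of members kept an adjusted p of at most 0.05 in the 6 other settings computed, 4 of them chosen after seeing the data (scaling to an equal sum, and leaving out Con 2, Exe 2, or Con 4 with Exe 5), with median r from 0.881 to 0.940. The replicate number as a block gave 0 genes past an adjusted and 567 past an unadjusted p and changed no call of a member. The numbers do not pair the mice, with r from -0.48 to 0.165 between deviations of same-numbered mice, and not every mouse matched its own number best. DESeq2 and edgeR were not run because FPKM are no counts. Since reads per gene are unknown, counting error cannot be separated from spread between mice.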

Other observations

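Among dendritic cell markers 1 of 10 was tested, Zbtb46 (log2 fold change 0.19, limma adjusted p = 0.793), which passed an unadjusted p and had r = -0.45 with the members. Of 2 tested B and plasma cell markers, Jchain, the joining chain of secreted antibodies, passed an unadjusted p with 0.56 to 1.47 FPKM in Con and 1.34 to 2.39 in Exe (log2 fold change 0.58, limma adjusted p = 0.519, r = -0.49). Every Con mouse except Con 5 (1.47) was below 1 FPKM, and every Exe mouse was above it. Jchain thus passed the filter on low values only through the Exe mice, so its test is not independent of the filter. Nkg7 was the tested T and NK cell marker (log2 fold change 0.12, limma adjusted p = 0.950). Of 5 tested red blood cell genes, 4 had estimates above 0 (median 0.75) and Hbb-bs, a beta-globin gene, passed an unadjusted p (0.83, limma adjusted p = 0.799, r = 0.042), in livers that had been flushed with saline. Both tested bile duct markers had estimates below 0 (median -0.31), neither past an unadjusted p, and the most abundant was Spp1, with 51.0 ± 19.5 FPKM in Con and 35.8 ± 17.8 in Exe (SD, n = 6 each). Cela1 was the tested pancreatic marker (log2 fold change 0.16, limma adjusted p = 0.931, r = -0.57). All 9 acute-phase genes had estimates below 0 (median -0.31) and none passed an unadjusted p; the most abundant was Hp, with 4240 ± 1840 FPKM in Con and 4080 ± 2050 in Exe.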
